A study of Homo sapiens with 6 samples.

Results

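The plasminogen activator and matrix metalloproteinase (MMP) systems were followed through 9 genes: the urokinase gene PLAU, its receptor gene PLAUR, the tissue-type activator gene PLAT, the serine protease inhibitor gene SERPINE2, the tissue inhibitor of metalloproteinases genes TIMP1, TIMP2 and TIMP3, the collagenase gene MMP1 and the membrane-type MMP gene MMP14. They were taken by name: every probe set whose platform annotation gives 1 symbol, and that symbol is one of the 9, was used. That gave 35 probe sets of the 44988 with 1 symbol, and 9 of the 18132 genes tested. All 9 genes had at least 2 probe sets.

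Expression was measured on 6 Affymetrix PrimeView arrays of TPC-1 cells, an established human papillary thyroid carcinoma line, 3 with a control short hairpin RNA (shRNA) and 3 with an shRNA directed at SHCBP1, both delivered by lentivirus. The extraction text of the labels names another line, DLD1, which derives from a colorectal carcinoma. In the deposited table each probe set has a median of 0 across arrays, so its values compare arrays and hold no level. Whether thyroid or colon markers are present therefore could not be checked, nor can the amount of one gene be set against that of another. The labels name 1 SHCBP1 hairpin and no add-back of the gene, and what the hairpin does through SHCBP1 cannot be told apart from what it does otherwise. Nothing in the labels says that the 3 samples of a group came from separate cultures, and the spread that the p-values rest on may be technical.

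Urokinase is a serine protease that cleaves plasminogen to plasmin, and its receptor holds it at the cell surface, which confines plasmin formation to the pericellular space. Plasmin breaks down fibrin and matrix proteins and activates several MMPs, which are zinc proteases of collagens and other matrix components. Serpins such as the SERPINE2 product (protease nexin-1) trap serine proteases, urokinase and thrombin among them, whereas TIMPs block the active site of MMPs. In carcinoma cells these genes are known for their part in matrix breakdown and invasion.

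With SHCBP1 shRNA, 6 of the 9 genes fell and none rose. The falls covered the urokinase pair (PLAU and PLAUR) and all 4 inhibitor genes (SERPINE2, TIMP3, TIMP2 and TIMP1), while PLAT, MMP1 and MMP14 did not pass the test. The fall of TIMP2 came from 1 of its 2 probe sets. That of TIMP1 was small and no longer passed in several variants of the fit, as given below. The call is limma's moderated test at a Benjamini-Hochberg adjusted p under 0.05 over all 18132 genes, and at an unadjusted p under 0.05 also 0 of the 9 were higher. On this scale 41% of all genes passed, 22% as higher and 19% as lower. The 3 SHCBP1 shRNA values lay entirely to one side of the 3 control values for 7 of the 9 genes, which was so for 50% of all genes. The median difference of the 9 genes was -0.31 on the log2 scale, against 0.02 for all genes tested. SHCBP1 itself, at 0.72, 0.76 and 0.71 with the control hairpin and -0.95, -0.76 and -0.72 with its own, fell by 1.54 ± 0.06 (SE, n = 3 arrays per group; limma, adjusted p = 1.87e-06).

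**Figure D1:**
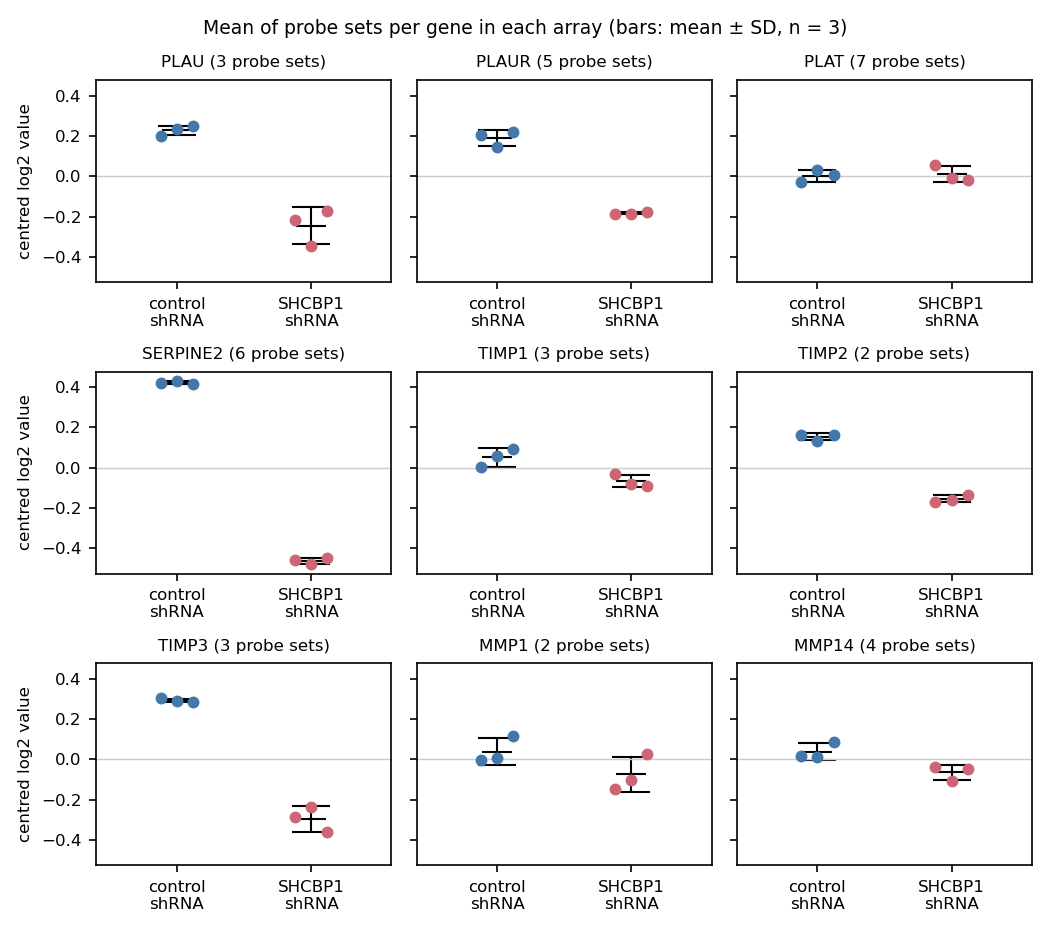
Centred log2 value (vertical axis) of each gene, as the mean of its probe sets, in the 3 control shRNA arrays (blue) and the 3 SHCBP1 shRNA arrays (red), with the group mean and SD in black. The groups are apart for PLAU, PLAUR, SERPINE2, TIMP1, TIMP2, TIMP3 and MMP14, and overlap for PLAT and MMP1.

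PLAU and PLAUR, the protease and the receptor that binds it, both fell. The centred log2 values of PLAU were 0.20, 0.23 and 0.25 with the control hairpin, against -0.22, -0.35 and -0.17 with SHCBP1 shRNA. All 3 SHCBP1 shRNA arrays lay below all controls, with replicate 2 the lowest. The difference was -0.47 ± 0.05 (SE, n = 3 per group), a 1.39-fold fall (limma, adjusted p = 0.000185). PLAUR had values of 0.21, 0.14 and 0.22 with the control hairpin, against -0.19, -0.19 and -0.18 with SHCBP1 shRNA. The groups did not overlap, and the 3 SHCBP1 shRNA arrays were close together (SD 0.0051). PLAUR fell 1.29-fold, with a difference of -0.37 ± 0.03 (SE, n = 3 per group; limma, adjusted p = 9.16e-05).

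Every probe set of the pair passed on its own. The 3 probe sets of PLAU fell by 0.45 to 0.51 and the 5 of PLAUR by 0.31 to 0.41 on the log2 scale. In all, 19 of the 35 probe sets of the 9 genes fell and 0 rose (limma at an adjusted p under 0.05, 0 also at an unadjusted p under 0.05), against 18.2% lower and 20.3% higher among all probe sets with 1 symbol. The probe sets of PLAU and of PLAUR did not pass a test of differing from each other (limma's diffSplice, adjusted p = 0.922 and 0.836).

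The stretches of 250 bases before the RefSeq start sites of both genes are given because the pair fell together and AP-1, a transcription factor, is known to act on genes of this family. Capitals mark matches on either strand to an AP-1 motif (TGANTCA) or a GC box (GGGCGG), none of which overlap here. No TATA box in the strict form TATAAA was found in either. Sequences run 5′ to 3′ on the gene's strand, from the GRCh38.p14 RefSeq table.
PLAU, chr10:73910882-73911131, plus strand: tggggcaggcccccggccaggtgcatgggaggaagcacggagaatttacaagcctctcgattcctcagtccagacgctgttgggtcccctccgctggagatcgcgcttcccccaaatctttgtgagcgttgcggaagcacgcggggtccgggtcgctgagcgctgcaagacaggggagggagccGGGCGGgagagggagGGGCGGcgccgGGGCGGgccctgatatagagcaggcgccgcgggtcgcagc
PLAUR, chr19:43670170-43670419, minus strand: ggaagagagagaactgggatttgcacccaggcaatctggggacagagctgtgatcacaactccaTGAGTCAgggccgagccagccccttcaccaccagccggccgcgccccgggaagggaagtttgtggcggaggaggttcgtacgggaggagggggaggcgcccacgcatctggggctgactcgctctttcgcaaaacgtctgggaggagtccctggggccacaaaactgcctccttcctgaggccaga
The PLAUR stretch held 1 AP-1 match, TGAGTCA at -186 to -180 from the start site, and no GC box. The PLAU stretch, the one with more matches of 2 start sites in the table, held 3 GC boxes between -66 and -35 and no AP-1 match. The other PLAU stretch held no match to any of the motifs. The PLAU stretch shown was thus picked by its matches, unlike the windows counted next. Among the 35116 windows of this length that were searched, 6.57% held the AP-1 motif, 42.6% the GC box and 10.7% the TATA box. A match describes letters and shows no binding. Sites outside the 250 bases, and forms that differ from a motif by a letter, were not searched.

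PLAT, the other activator, whose product acts mainly at fibrin, did not pass the test. Its values were -0.03, 0.03 and 0.00 with the control hairpin, against 0.06, -0.01 and -0.02 with SHCBP1 shRNA. The groups overlapped, and the difference was 0.01 ± 0.04 (SE, n = 3 per group; limma, adjusted p = 0.888). The 95% confidence interval ran from -0.08 to 0.09, which leaves out differences of the size seen for PLAU and PLAUR. Its 7 probe sets lay between -0.14 and 0.13, and 0 of the 7 passed (0 also at an unadjusted p under 0.05, limma).

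SERPINE2, whose product inhibits urokinase and thrombin, had the largest difference of the 9 genes. Its centred log2 values were 0.42, 0.43 and 0.41 with the control hairpin, against -0.46, -0.48 and -0.45 with SHCBP1 shRNA. The arrays of each group were nearly level and far from the other group. The 1.85-fold fall, a difference of -0.89 ± 0.03 (SE, n = 3 per group), passed limma's test (adjusted p = 1.32e-06) and was larger in size than the differences of 98.2% of all genes.

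That mean joins 6 probe sets that did not behave alike. Probe sets 11741680_a_at, 11757442_a_at, 11757643_x_at and 11758598_s_at fell, with differences of -1.29, -1.34, -1.19 and -1.15 on the log2 scale. Probe set 11741679_x_at fell by 0.43, with 0.36, 0.12 and 0.08 with the control hairpin, against -0.08, -0.44 and -0.20 with SHCBP1 shRNA. Probe set 11741678_a_at did not pass: it had -0.18, 0.08 and -0.07 with the control hairpin, against 0.00, 0.00 and 0.05 with SHCBP1 shRNA, a difference of 0.08 ± 0.07 (SE; limma, adjusted p = 0.442). In that probe set the groups overlapped. Relative to the other 5 it was higher by 1.16 ± 0.08 (SE, n = 3 per group; limma on deviations, adjusted p = 0.000205). Taking the probe set with the largest spread over the arrays in place of the mean gives a difference of -1.34 for the gene.

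The upstream stretch of SERPINE2 is given as that of the member with the largest difference, with the same marks.
SERPINE2, chr2:224038641-224038890, minus strand: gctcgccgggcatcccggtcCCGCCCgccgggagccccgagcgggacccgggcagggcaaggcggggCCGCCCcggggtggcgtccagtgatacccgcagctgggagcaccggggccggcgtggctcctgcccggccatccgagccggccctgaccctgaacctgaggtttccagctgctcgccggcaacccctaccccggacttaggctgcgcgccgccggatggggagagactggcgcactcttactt
It is the one with more matches of 2 start sites in the table and held 2 GC boxes, at -230 to -225 and at -183 to -178, and no AP-1 match. The other SERPINE2 stretch held 1 GC box and no AP-1 match.

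The 3 genes whose values over the 6 arrays lay nearest to those of SERPINE2 (smallest Euclidean distance among all genes tested) were KLF4, which encodes a transcription factor, TCF12, which encodes another, and SPTLC2, which encodes a subunit of serine palmitoyltransferase. Their distances were 0.041, 0.049 and 0.055, and their own differences were -0.87, -0.88 and -0.89 on the log2 scale. This is a likeness over 6 arrays of 2 groups. No member rose, so no such neighbours were sought for a rise.

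The TIMP genes all fell, but by different amounts. TIMP3, whose product is bound to the matrix and inhibits ADAM proteases as well as MMPs, had the largest fall of the family. Its values were 0.30, 0.29 and 0.29 with the control hairpin, against -0.29, -0.24 and -0.36 with SHCBP1 shRNA. The groups were far apart, and the difference was -0.59 ± 0.04 (SE, n = 3 per group), a 1.5-fold fall (limma, adjusted p = 2.21e-05). Its 3 probe sets all fell, by 0.41 (11715435_s_at), 0.57 (11715436_at) and 0.78 (11715437_at) on the log2 scale.

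The 250 bases before the TIMP3 start site are shown as those of the TIMP gene with the largest fall, with the same marks.
TIMP3, chr22:32801455-32801704, plus strand: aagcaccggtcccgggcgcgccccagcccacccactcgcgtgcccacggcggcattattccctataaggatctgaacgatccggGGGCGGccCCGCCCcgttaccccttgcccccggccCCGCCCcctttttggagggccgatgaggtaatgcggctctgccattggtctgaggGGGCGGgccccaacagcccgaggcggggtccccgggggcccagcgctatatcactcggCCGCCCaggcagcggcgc
They held 5 GC boxes, the most of the 8 windows used for 6 of the 9 genes, and no AP-1 match. The upstream stretches of TIMP1 and MMP14 held 2 GC boxes and 1, and neither held a match to the strict AP-1 form TGANTCA. Near forms that differ from it by a letter, such as TGAGTAA in the TIMP1 stretch, were not counted in any stretch. No window was used for TIMP2, MMP1 or PLAT, so their upstream stretches were not searched.

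TIMP2, which inhibits MMPs and also takes part in the activation of pro-MMP2 by the MMP14 product, fell 1.24-fold as a mean of its probe sets. Its values were 0.16, 0.13 and 0.16 with the control hairpin, against -0.17, -0.16 and -0.13 with SHCBP1 shRNA, and the groups did not overlap. The difference was -0.31 ± 0.03 (SE, n = 3 per group; limma, adjusted p = 0.000159). This fall came from 1 of its 2 probe sets. Probe set 11722786_s_at fell by 0.59, with 0.32, 0.27 and 0.32 with the control hairpin, against -0.31, -0.29 and -0.27 with SHCBP1 shRNA. Probe set 11748126_a_at had a difference of -0.02 ± 0.04 (SE; limma, adjusted p = 0.72), and its groups overlapped. With the _s_at and _x_at probe sets left out, names that Affymetrix gives to probes shared with other transcripts, TIMP2 did not pass (difference -0.02, limma, adjusted p = 0.695).

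TIMP1, a secreted inhibitor of most MMPs, had the smallest fall that passed. Its values were 0.00, 0.06 and 0.09 with the control hairpin, against -0.03, -0.08 and -0.09 with SHCBP1 shRNA. The groups did not overlap, but the nearest arrays of the groups were close. The difference of -0.12 ± 0.04 (SE, n = 3 per group) was a 1.09-fold fall with an adjusted p of 0.0415 (limma). Probe sets 11715359_a_at and 11715360_x_at both fell by 0.20 on the log2 scale, and 11763761_a_at had a difference of 0.05 ± 0.06 (SE; limma, adjusted p = 0.61). TIMP1 no longer passed limma's test without control replicate 2 (adjusted p = 0.097), control replicate 3 (0.119), SHCBP1 shRNA replicate 2 (0.108) or SHCBP1 shRNA replicate 3 (0.12). Nor did it pass without the _s_at and _x_at probe sets (limma, adjusted p = 0.242) or with array weights (0.0507). Its difference was -0.20 when the probe set with the largest spread stood for the gene and -0.18 with the median of its probe sets.

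**Figure D2:**
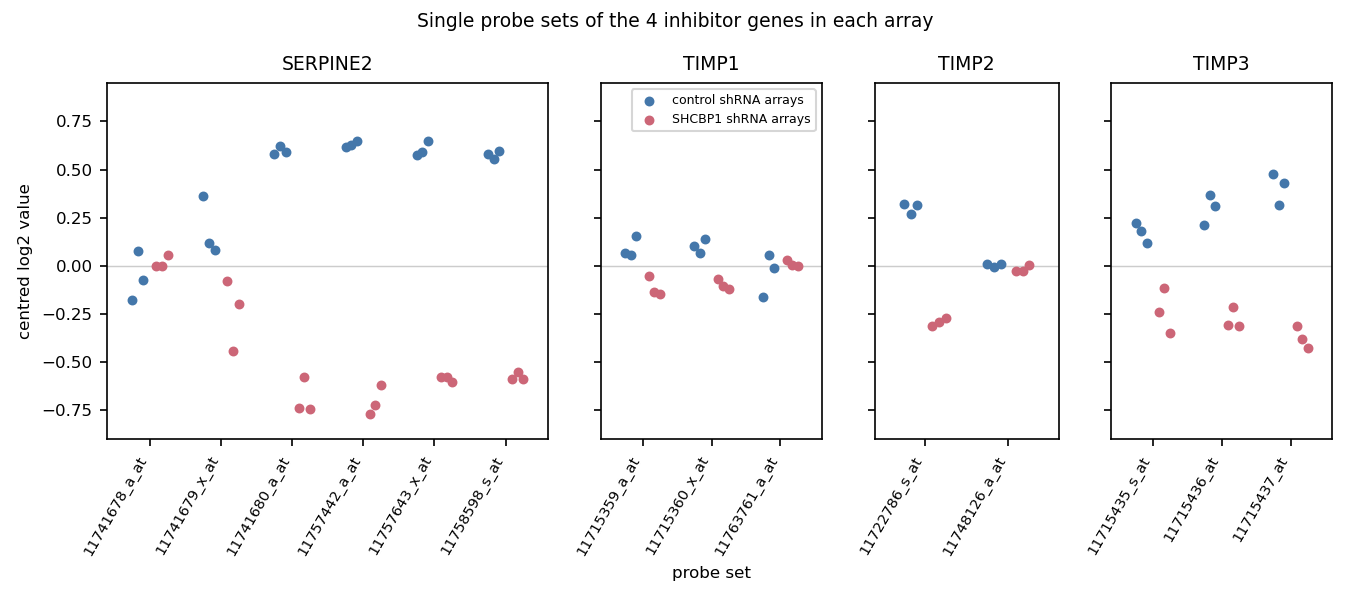
Centred log2 value (vertical axis) of each probe set (horizontal axis) of SERPINE2, TIMP1, TIMP2 and TIMP3, 1 point per array, control shRNA in blue and SHCBP1 shRNA in red. The points of both groups mix for 11741678_a_at of SERPINE2, 11763761_a_at of TIMP1 and 11748126_a_at of TIMP2, and are apart for the others.

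Whether probe sets of a gene gave different responses was tested directly. The diffSplice test of limma passed for 4 of the 9 genes, SERPINE2 (adjusted p = 2.03e-12), TIMP2 (3.23e-06), TIMP3 (0.0124) and TIMP1 (0.0195), against 26.8% of the 11734 genes with at least 2 probe sets. On simulated data this test made more false calls than its threshold allows, so each probe set was also tested as its deviation from the other probe sets of its gene in the same array. By that test, added after seeing the data, 3 of the 9 genes held a differing probe set (SERPINE2, TIMP2 and TIMP3, smallest adjusted p = 0.000205, 0.000342 and 0.0279) against 26.7% of genes, and TIMP1 had an adjusted p of 0.0506. The diffSplice call of TIMP1 was lost without control replicate 1 (limma, adjusted p = 0.101), control replicate 3 (0.0759) or any 1 of the 3 SHCBP1 shRNA arrays (0.0508, 0.0916 and 0.0917), and that of TIMP3 without control replicate 3 (0.0921) or SHCBP1 shRNA replicate 2 (0.0685), and when the _s_at and _x_at probe sets were left out (0.0943). Probe sets of a gene share its RNA and some may share probes, so they are no replicates of each other. Which transcripts each probe set detects was not tested.

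The MMP genes among the 9 did not pass the test. MMP1, the interstitial collagenase, had values of -0.00, 0.00 and 0.11 with the control hairpin, against -0.15, -0.10 and 0.02 with SHCBP1 shRNA, and the groups overlapped. Its difference was -0.11 ± 0.06 (SE, n = 3 per group; limma, adjusted p = 0.156), with a 95% confidence interval from -0.24 to 0.02. Without SHCBP1 shRNA replicate 3, the highest of its group, the difference was -0.16 and passed limma's test (adjusted p = 0.0468). It was smaller without control replicate 3 (-0.075, limma, adjusted p = 0.383) or without SHCBP1 shRNA replicate 1 (-0.078, limma, adjusted p = 0.375).

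MMP14, which sits in the plasma membrane and activates pro-MMP2, had values of 0.02, 0.01 and 0.09 with the control hairpin, against -0.04, -0.11 and -0.05 with SHCBP1 shRNA. All SHCBP1 shRNA arrays lay below all controls, but the difference of -0.10 ± 0.04 (SE, n = 3 per group) did not pass limma's test (adjusted p = 0.0675). With the quantile normalization repeated it passed (limma, adjusted p = 0.0442). The 4 probe sets lay between -0.19 and 0.02, and none passed (1 at an unadjusted p under 0.05, limma).

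**Figure D3:**
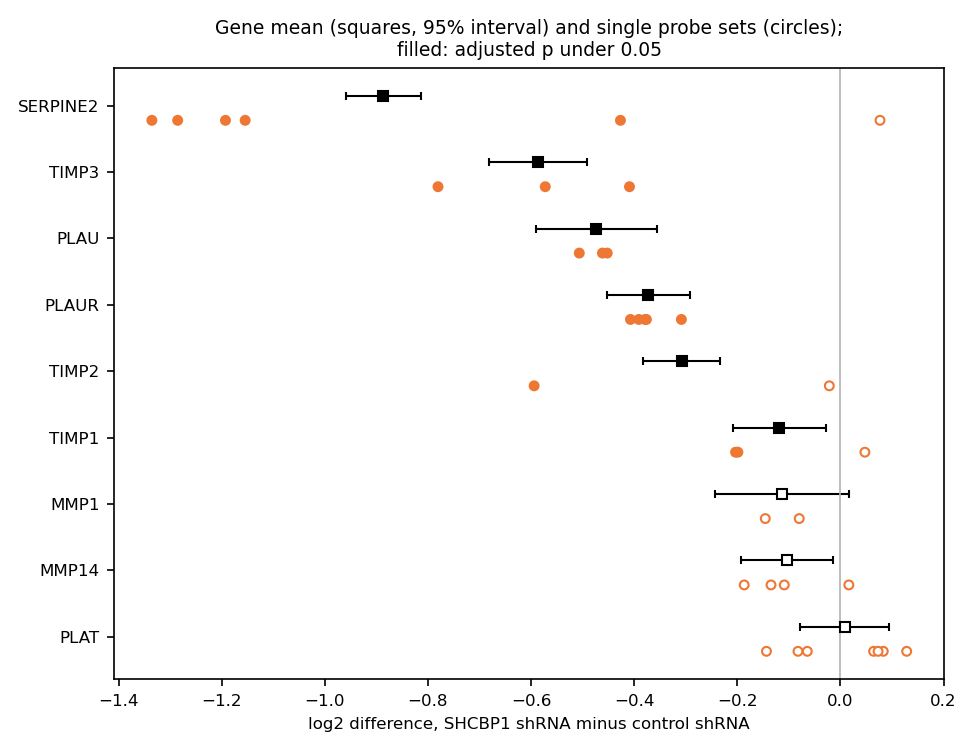
Difference between the groups on the log2 scale (horizontal axis) for each gene, as the gene mean with its 95% confidence interval (black squares) and as single probe sets (orange circles), filled where limma's adjusted p was under 0.05. The gene means run from -0.89 for SERPINE2 to 0.01 for PLAT, and the probe sets of SERPINE2 from -1.34 to 0.08.

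Ordered by size, the differences ran from SERPINE2 through TIMP3, PLAU, PLAUR, TIMP2, TIMP1, MMP1 and MMP14 to PLAT. The interval of SERPINE2 (-0.96 to -0.81) lay apart from that of TIMP3 (-0.68 to -0.49). The intervals of TIMP3 and PLAU, of PLAU and PLAUR, and of PLAUR and TIMP2 overlapped, and those of TIMP2 (-0.38 to -0.23) and TIMP1 (-0.21 to -0.03) did not. TIMP1, MMP1, MMP14 and PLAT had overlapping intervals. Differences between genes were not tested.

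**Figure D4:**
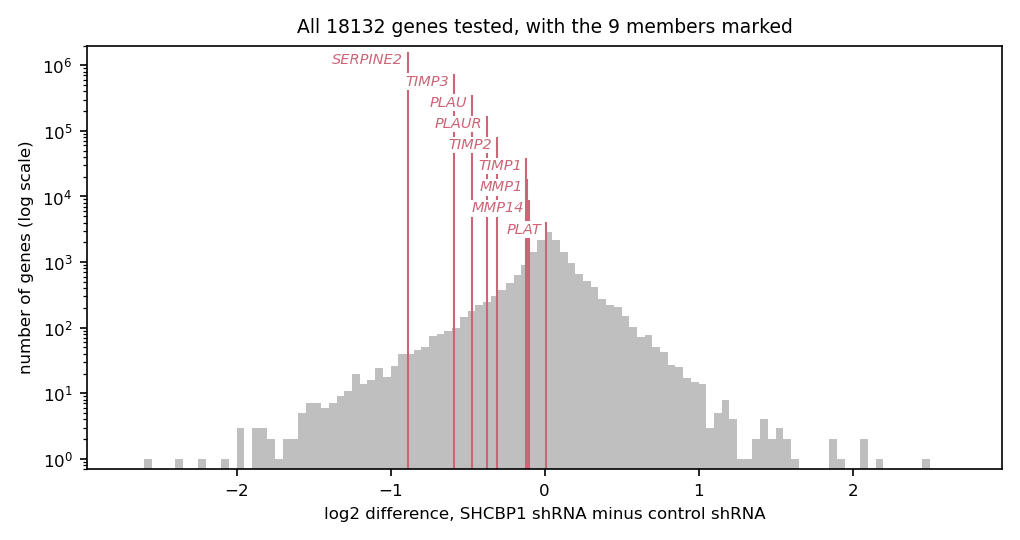
Histogram of the differences of all 18132 genes (horizontal axis, log2 scale; vertical axis, number of genes on a log scale), with the 9 genes marked by red lines whose height has no meaning. SERPINE2 lies in the lower tail at -0.89, and PLAT at 0.01 lies near the median of all genes, 0.02.

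The other genes of both systems came from lists of textbook components. Of 14 tested genes around plasminogen, 2 rose and 2 fell, with a median of -0.01 on the log2 scale. Among all genes 22% rose and 19% fell. ANXA2 and S100A10, which encode the annexin A2 complex that binds plasminogen and tissue-type activator at the cell surface, rose by 0.46 ± 0.03 and 0.42 ± 0.03 (SE; limma, adjusted p = 2.18e-05 and 5.4e-05). With scaling to spike-in controls their differences were 0.07 and 0.03 and did not pass. The coagulation factor gene F12 fell by 0.29 ± 0.04 and the plasminogen receptor gene PLGRKT by 0.13 ± 0.04 (SE; limma, adjusted p = 0.000533 and 0.0217). PLGRKT was lost without control replicate 2 (limma, adjusted p = 0.0505), control replicate 3 (0.0633), SHCBP1 shRNA replicate 2 (0.0705) or SHCBP1 shRNA replicate 3 (0.0539). It was also lost when the probe set with the largest spread stood for each gene (limma, adjusted p = 0.0613). The plasminogen gene PLG, named after its value was seen, did not pass (0.09 ± 0.04, SE; limma, adjusted p = 0.128).

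Of 20 other tested MMP genes, 4 fell and none rose (1 higher at an unadjusted p under 0.05, limma), with a median of -0.02, against 19% lower and 22% higher among all genes. With a replicate block, and without control replicate 2, 1 was called higher and 3 lower. MMP15, a membrane-type MMP, fell by 0.35 ± 0.05, MMP7 (matrilysin) by 0.34 ± 0.07 and MMP11 (stromelysin-3) by 0.28 ± 0.07 (SE; limma, adjusted p = 0.000791, 0.00531 and 0.0118). The 4 probe sets of MMP7 ranged from -0.92 to 0.10, and with their median in place of the mean MMP7 did not pass (limma, adjusted p = 0.0575). MMP13, a collagenase, fell by 0.10 ± 0.03 (SE, limma, adjusted p = 0.0363). Leaving out any 1 of the 6 arrays ended that call (limma, adjusted p from 0.0637 to 0.109). So did a replicate block (limma, adjusted p = 0.0833), leaving out the _s_at and _x_at probe sets (0.0956) and taking the probe set with the largest spread (0.172). The gelatinase gene MMP9 did not pass (0.22 ± 0.09, SE; limma, adjusted p = 0.0978), and MMP9 was named after its value was seen.

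Of 19 other inhibitors and MMP regulators, 6 fell and 2 rose, with a median of 0.01, against 19% lower and 22% higher among all genes. Without SHCBP1 shRNA replicate 3 the rises were 4, and with the median of probe sets or the probe set of the largest spread they were 3. The falls were led by SLPI, a secreted inhibitor of leukocyte elastase, whose value rests on 1 probe set. SLPI had 0.45, 0.64 and 0.52 with the control hairpin, against -0.46, -0.47 and -0.45 with SHCBP1 shRNA, a difference of -0.99 ± 0.05 (SE; limma, adjusted p = 6.1e-06). Among serpins, SERPINA1 (alpha-1-antitrypsin) fell by 0.54 ± 0.06, SERPINB5 (maspin) by 0.47 ± 0.04 and SERPINB1, an inhibitor of neutrophil proteases, by 0.30 ± 0.04 (SE; limma, adjusted p = 0.000289, 9.9e-05 and 0.000757). Their probe sets disagreed in size too, from -0.94 to 0.08 for SERPINA1 and from -0.92 to -0.04 for SERPINB5. The 2 rises, named after their values were seen, were SERPINH1 (0.23 ± 0.04, SE), a collagen chaperone, and NRDC (0.13 ± 0.03, SE), a metalloprotease, and with spike-in scaling none of the 19 was higher.

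**Figure D5:**
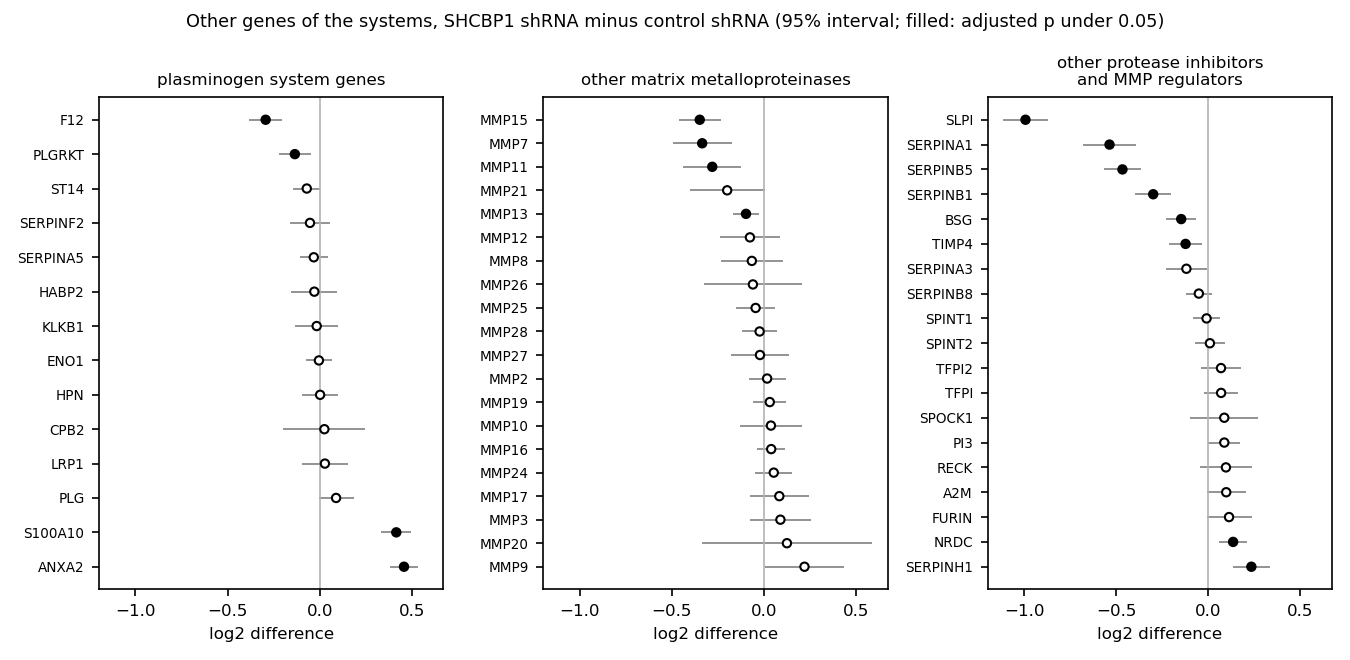
Difference between the groups on the log2 scale (horizontal axis) with its 95% confidence interval for the other genes of the plasminogen system (left), other MMP genes (middle) and other inhibitors and regulators (right), filled where limma's adjusted p was under 0.05. ANXA2 and S100A10 stand to the right at 0.46 and 0.42, and SLPI to the left at -0.99.

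Values that moved with the groups outside these genes touch all of the results above. The poly-A spike-in controls, bacterial transcripts mixed into each RNA, read higher with SHCBP1 shRNA by 0.39 ± 0.04 (SE, n = 3 per group), as did the probe sets at the 5′ end, the middle and the 3′ end of the large ribosomal RNA, by 2.80 ± 0.03, 1.56 ± 0.04 and 0.30 ± 0.06 (SE). The 5′ probe set of the small ribosomal RNA read lower, with a difference of -0.24 ± 0.01 (SE). The hybridization controls (bioB, bioC, bioD and cre) read higher by only 0.08 ± 0.02 (SE). The 3′ and 5′ control probe sets read higher by 0.20 ± 0.01 and 0.28 ± 0.01 for ACTB and by 0.04 ± 0.01 and 0.05 ± 0.01 for GAPDH (SE). Scaled to the poly-A spike-ins, all 9 genes were lower (PLAT by a difference of -0.38, limma, adjusted p = 0.000252), and so were 15736 of 18132 genes. Of the markers tested, 0 of 10 fibroblast genes passed (1 at an unadjusted p under 0.05, limma). Of 9 colon epithelium genes 2 rose (LGR5 and CDX2) and 1 fell (KRT20, by 1.09), of 9 thyroid genes 1 rose (FOXE1) and of 9 immune genes 1 rose (ITGAM). The part of these in the results was not tested.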

How the data were processed

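The authors deposited RMA values (named in the submitters' processing notes), 1 for every probe set on every array. Their log base is unstated. The deposited values were taken as log2, the scale of RMA. The median over the 6 arrays is 0 for every probe set (largest absolute median 5e-07), which shows a centring by probe set. For that step and for the RMA software, details were not given in the sources used here. RMA's quantile step would remove a shift shared by most transcripts.

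Of 49395 probe sets, 102 controls, 1832 with several symbols and 2473 unnamed here were left out. A gene's value is the mean of its probe sets. Group differences, SHCBP1 shRNA minus control, were tested on all genes in an unpaired limma 3.58.1 fit (lmFit, eBayes; R 4.3.3), and p-values were adjusted by Benjamini-Hochberg. Errors are moderated standard errors. Control probe sets (spike-in, hybridization, ribosomal, ACTB and GAPDH) carry an unmoderated standard error from the 3 arrays of each group. Probe sets were tested the same way over all 44988, and against each other with diffSplice. No filter on dim genes was possible. Scripts were tested on simulated data.

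All 9 genes matched the RefSeq table (GRCh38.p14), which was used for names and promoters. The members, lists and tests were chosen with earlier results of these data known. The text names all members, SHCBP1, up to 4 genes per list with the largest differences past the threshold, and the nearest patterns to the largest fall and rise. Others are marked. The number of arrays limits the precision. Alternatives were repeated quantile normalization, array centring, spike-in scaling, array weights, robust moderation, a replicate block, leaving out each array, and other choices of probe sets. Same-numbered arrays did not deviate together (correlations 0.018, -0.046 and 0.067), so the numbers were not used to pair samples.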

Additional observations from a re-analysis of the deposited data

How the results depend on the processing

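PLAU, PLAUR, SERPINE2 and TIMP3 fell and passed limma's test under all 16 alternatives. TIMP2 did so in all but 1 and TIMP1 lost its call in 7, of which 6 are given above where it is described. The other is the replicate block, where 5 of the 9 genes passed, with TIMP1 lost (limma, adjusted p = 0.0918), and 7092 of all genes passed. Every other member kept its side of the threshold there. Leaving out 1 array gave 5 to 6 members, 19 to 20 member probe sets and 6655 to 6840 genes past the threshold. Scaling to the spike-in controls gave 16327 genes past the threshold (591 higher and 15736 lower), and 16709 without Trp, which was chosen after seeing the data. PLAT, at 0.01 and not past the threshold in the main fit, passed there as lower, at -0.38 and at -0.43 without Trp. S100A10 lost its call there, at 0.03 and at -0.018 without Trp. The number of members whose probe sets differed was 2 when the _s_at and _x_at probe sets were left out (TIMP2 then has 1 probe set and could not be tested, and TIMP3 keeps 2 and lost its call), and 2 to 4 when 1 array was left out. Centred values carry no brightness, so dim and bright probe sets could not be told apart.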
